A study of Homo sapiens with 6 samples.

Results

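TXNIP, the arrestin-domain proteins ARRDC1 to ARRDC4, the transcription factor subunits MLXIP and MLX, thioredoxin (TXN) and the glucose transporters SLC2A1 and SLC2A3 were followed by RNA sequencing in A549, a long-established cell line derived from a human non-small cell lung cancer. These are 10 of the 58735 genes counted in each library, found by their GENCODE 29 symbols. They were selected on what the genes do and with the B35 and untreated values of these libraries known, so their fold changes and calls are given as a description and support nothing by themselves. One group of 3 libraries came from cells given B35 at 2 µM for 72 h, and the other group of 3 came from cells labelled untreated. B35 is described by the series as inhibiting LSD1, a demethylase of histones and the product of KDM1A. The question put by the comparison is which transcripts the compound changes. Every library came from the same lung cancer line with a genotype given as WT, grown in DMEM with serum. No solvent is named for the untreated cells, and the labels do not give the glucose content of the medium. Nor do the labels say whether libraries of a group were separate cultures, so p-values measure the spread between libraries, which may be technical.

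TXNIP and ARRDC1 to ARRDC4 are α-arrestins, adaptor proteins that bring NEDD4-family ubiquitin ligases to membrane proteins and so steer these proteins into endocytosis. TXNIP binds reduced thioredoxin, the small protein that passes electrons from thioredoxin reductase to peroxiredoxins and other targets, and it promotes the internalization of GLUT1, the glucose transporter encoded by SLC2A1. Its gene is a well-known target of MondoA, the product of MLXIP, which pairs with MLX, responds to glucose 6-phosphate and binds carbohydrate response elements in promoters.

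Library totals ran from 17209863 to 18530670 counts with B35 and from 17141478 to 18398450 counts in untreated cells. In a principal component analysis of log2 CPM (read counts made comparable between libraries with TMM size factors) B35 and untreated libraries separated along the first component, with 47.8% of the variance. Along the second, with 19.9%, B35 replicate 1 lay away from B35 replicates 2 and 3, so values without it are given beside each call it changes and each count of the 10 genes or the lists that it moves by over 1.5 times. KDM1A was not called different, with counts of 3433, 3293 and 3345 with B35 and of 3574, 3532 and 3371 in untreated cells, and its transcript level does not measure enzyme activity. The 6 epithelial markers of the line were all counted and summed to 2303 to 2761 CPM with B35 and to 3085 to 3180 CPM in untreated cells. Of these, KRT8 was called lower (log2 fold change -0.57 ± 0.11, edgeR adjusted p = 0.00611) and EPCAM higher (1.10 ± 0.17, adjusted p = 0.00248) with B35. The 9 markers of leukocytes, endothelium and fibroblasts summed to 21.2 to 23.3 CPM with B35 and to 28.3 to 29.3 CPM in untreated cells. Most of that sum was COL1A1, while the leukocyte gene PTPRC had 1 count in B35 replicate 2 and none in the other libraries. CD68 had no count in any library, but 81.73% of its exons are shared with AC016876.2 on the same strand, and reads there could be assigned to either gene or to neither. What part these marker differences have in the values of the 10 genes was not tested. In such bulk RNA, fewer cells that express a gene and less of its RNA per cell cannot be told apart.

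With B35, TXNIP, ARRDC3 and ARRDC4 were higher, while ARRDC1, ARRDC2, MLXIP, MLX, TXN, SLC2A1 and SLC2A3 were not called. A gene is called where its adjusted p was under 0.05 in edgeR's quasi-likelihood test of B35 against untreated over 14773 genes, and fold changes are B35 over untreated with the SE of the fit. All 10 genes passed the filter on low counts, and 3 were called higher and 0 lower, where 8.82% of all tested genes were called higher, 6.59% lower and 15.4% in either direction. At an unadjusted p under 0.05 the fit gave 4 of the 10 higher and 1 lower. The share of all tested genes under that unadjusted threshold was not counted. DESeq2 called 3 higher and 1 lower, and limma-voom called 3 higher and 0 lower. Without B35 replicate 1 the fit called 4 higher and 1 lower, as SLC2A1 and TXN then passed. Since the genes were chosen with these values known, nothing is read from the counts. Where groups are said not to overlap, this describes the 6 libraries, as the share of all tested genes without overlap was not counted.

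**Figure D1:**
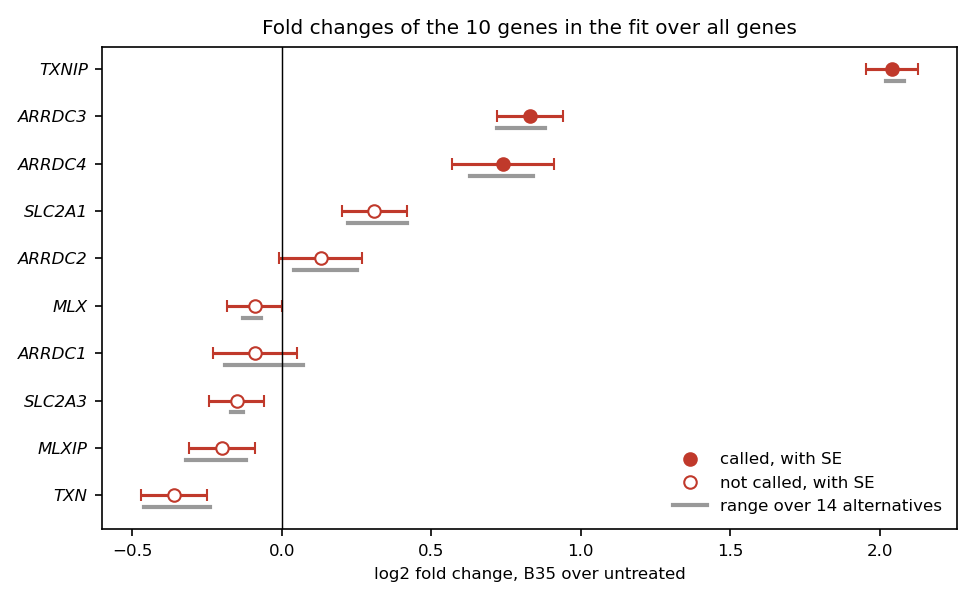
log2 fold change of B35 over untreated for each of the 10 genes (x axis), with the SE as error bars, filled points for called genes and grey bars for the range over the 14 alternatives. TXNIP stood at 2.04, ARRDC3 at 0.83 and ARRDC4 at 0.74. The SE bars of ARRDC1 and ARRDC2 crossed 0 and that of MLX reached it, while among grey bars only that of ARRDC1 crossed 0.

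TXNIP was about 4-fold more abundant with B35. The gene (ENSG00000265972) lies at chr1:145992435-145996600 on the minus strand (hg38, GENCODE 29) and had 2966, 2934 and 3248 counts in the B35 libraries, against 708, 740 and 700 in the untreated libraries. Scaled to library size, these are 168, 163 and 171 CPM with B35 and 39.5, 41.0 and 41.6 CPM in untreated cells. The groups lay far apart, and within each the libraries were close, with a coefficient of variation of 2.51% with B35 and 2.72% in untreated cells. In the fit over all genes the log2 fold change was 2.04 ± 0.088 (SE), a 4.11-fold higher level with B35, and TXNIP was called higher. It was called higher under each of 14 alternative settings as well, with log2 fold changes of 2.02 to 2.08. By size of the rise it stood in place 71 of all tested genes. By deposited FPKM, which is counts per length and depth, TXNIP ranked 893, 1038 and 949 among all genes in the B35 libraries and 4510, 4318 and 4287 in the untreated libraries.

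The other α-arrestins divided into a pair that were higher with B35 and a pair that were not called. ARRDC3 (ENSG00000113369, chr5:91368724-91383359, minus strand), an adaptor known for the ubiquitination of adrenergic receptors and integrins, had 99.6, 80.3 and 82.5 CPM with B35 and 52.6, 44.8 and 50.2 CPM in untreated cells. All B35 libraries lay above all untreated ones, and B35 replicate 1 was the highest of them. Its log2 fold change was 0.83 ± 0.11, or 1.78-fold, and 0.72 ± 0.091 without B35 replicate 1, and it was called higher in the main comparison and in all 14 alternatives. ARRDC4 (ENSG00000140450, chr15:97960698-97973838, plus strand) is, like TXNIP, a MondoA target that lowers glucose uptake. It was the least abundant of the 10 genes per length, and it had 8.42, 8.71 and 8.17 CPM with B35 and 5.74, 5.15 and 4.22 CPM in untreated cells. Again the groups did not overlap, and the coefficient of variation was 3.23% with B35 and 15.2% in untreated cells. ARRDC4 rested on 149, 157 and 155 counts with B35 and on 103, 93 and 71 counts in untreated cells. The log2 fold change was 0.74 ± 0.17, or 1.67-fold. ARRDC4 was called higher in 13 of 14 alternatives and was not called without untreated replicate 3, where the value was 0.63 ± 0.19.

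ARRDC1 (ENSG00000197070, chr9:137605654-137615360, plus strand), which drives the budding of vesicles from the plasma membrane, had 47.5, 67.0 and 69.9 CPM with B35 and 66.3, 66.8 and 62.8 CPM in untreated cells. The groups overlapped, and B35 replicate 1 alone lay below all other libraries. Its log2 fold change was -0.09 ± 0.14, against 0.07 ± 0.082 without that library, and ARRDC1 was called in no setting. ARRDC2 (ENSG00000105643, chr19:18001132-18014102, plus strand) had 31.1, 40.2 and 41.9 CPM with B35 and 34.2, 38.9 and 30.5 CPM in untreated cells. These groups overlapped too, B35 replicate 1 was again the lowest B35 library, and the log2 fold change was 0.13 ± 0.14 with it and 0.25 ± 0.11 without it. ARRDC2 was not called in any setting either. Small parts of the exons of these genes are shared with other genes: 9.53% of ARRDC2 with AC020904.3, 4.79% of ARRDC1 with AL590627.2 and 0.76% with ARRDC1-AS1, and 2.94% of ARRDC3 with ARRDC3-AS1. AC020904.3 and AL590627.2 had no count in any library. Counted together per length, the 5 α-arrestins held 88.8 ± 2.5 FPKM with B35 and 46.7 ± 0.987 FPKM in untreated cells (SD, n = 3 each). TXNIP made up 51.2 ± 1.4% of that sum with B35 and 23.9 ± 1.15% in untreated cells.

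**Figure D2:**
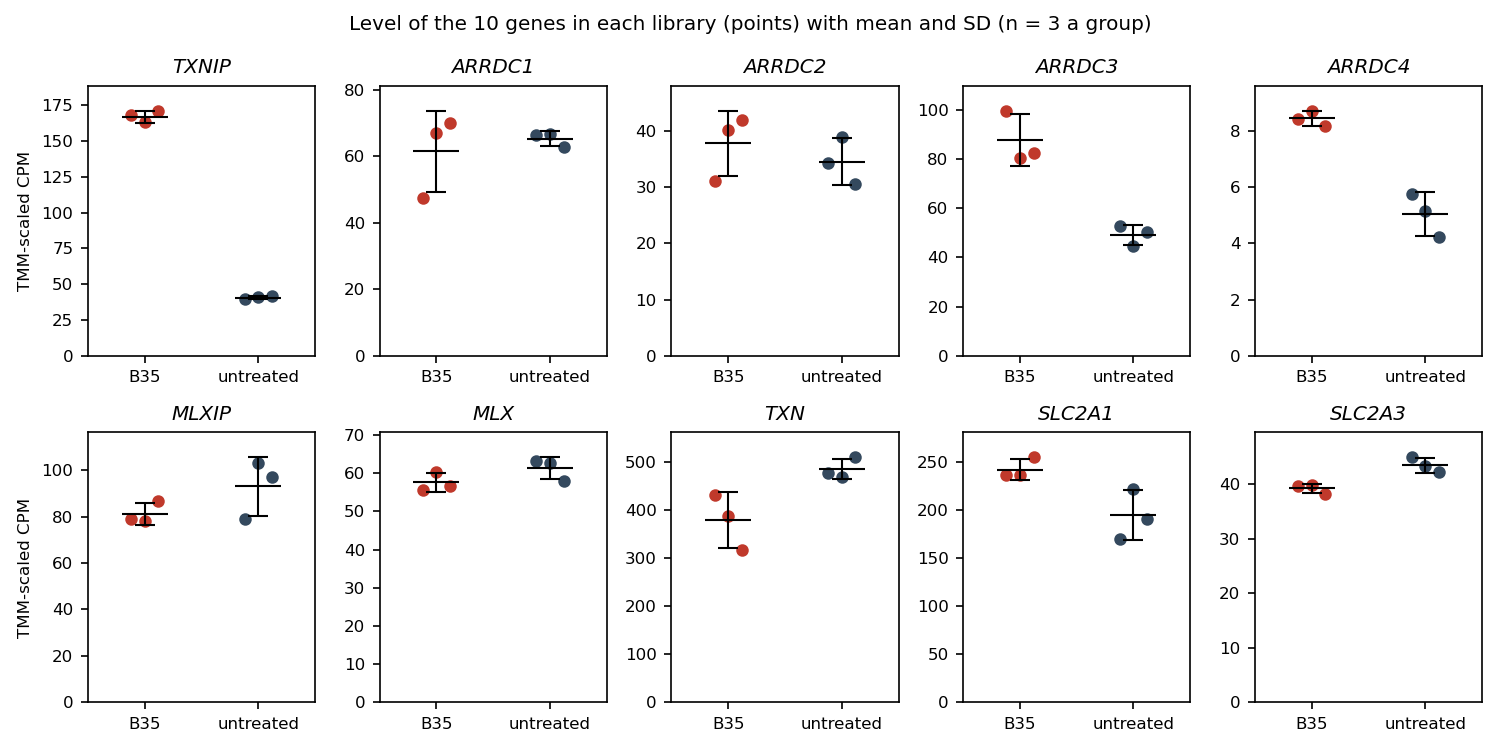
Level of each of the 10 genes in TMM-scaled CPM (y axis, from 0) in the B35 libraries (left, red) and the untreated libraries (right, dark), with points for libraries and bars for the mean and SD of 3. TXNIP, ARRDC3, ARRDC4 and SLC2A1 stood higher with B35 with no overlap, TXN and SLC2A3 stood lower with no overlap, and the single low point of ARRDC1 was B35 replicate 1. The share of all tested genes without overlap was not counted.

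The promoters of the 3 genes called higher are shown because MondoA and its partner MLX are known to act through paired E-box-like elements, and the 3 promoters differed in holding them. They are the 250 bases before the RefSeq transcription start on GRCh38.p14, 5′ to 3′ on the gene's strand. TXNIP is chr1:145996580-145996829, minus strand; ARRDC4 is chr15:97960453-97960702, plus strand; ARRDC3 is chr5:91383318-91383567, minus strand. Capitals mark the E-box-like elements CACGNG and CNCGTG, which are each other's reverse complement, and the CCAAT box, read as CCAAT or ATTGG.
TXNIP: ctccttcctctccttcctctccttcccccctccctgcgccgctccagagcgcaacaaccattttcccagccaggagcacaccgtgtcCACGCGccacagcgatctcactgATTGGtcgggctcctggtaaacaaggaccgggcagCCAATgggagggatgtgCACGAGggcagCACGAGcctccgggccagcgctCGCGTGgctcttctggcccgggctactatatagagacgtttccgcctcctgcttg
ARRDC4: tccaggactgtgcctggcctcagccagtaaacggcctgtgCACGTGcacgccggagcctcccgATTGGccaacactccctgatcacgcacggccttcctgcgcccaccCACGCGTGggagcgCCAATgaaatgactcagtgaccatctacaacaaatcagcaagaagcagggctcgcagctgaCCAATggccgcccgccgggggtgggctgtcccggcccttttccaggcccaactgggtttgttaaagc
ARRDC3: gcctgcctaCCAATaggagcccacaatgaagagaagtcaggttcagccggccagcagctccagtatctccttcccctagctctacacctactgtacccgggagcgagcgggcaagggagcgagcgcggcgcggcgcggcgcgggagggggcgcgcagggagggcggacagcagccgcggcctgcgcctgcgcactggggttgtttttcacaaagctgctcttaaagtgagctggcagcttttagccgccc

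Positions are given from the RefSeq start as 0, with negative numbers before it, and motifs were searched on both strands in windows that also hold the 50 bases from the start on. The TXNIP window shown held 4 E-box-like elements, whose first bases were at -163, -88, -77 and -55, and CCAAT boxes at -140 and -105. The middle elements, -88 to -83 and -77 to -72, are separated by 5 bases, the spacing of a carbohydrate response element. Both read CACGAG on the gene's strand. Such a pair in any orientation, a pattern chosen after this promoter had been seen, was in 27 of 35116 RefSeq windows of the same length, or 0.0769%. The inverted form, CACGNG then 5 bases then CNCGTG, was in 8 windows (0.0228%). It was in none of the 12 windows found for 9 of the 10 genes.

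ARRDC4 held the full E-box CACGTG at -210, which is also an E-box-like element, and a pair of elements that overlap each other at -142 and -140. Its 3 CCAAT boxes began at -187, -128 and -67. ARRDC3 had no E-box-like element in the window shown and a CCAAT box at -241, while the window at its other RefSeq start held 1 element, at -193. The window at the other RefSeq start of TXNIP held no E-box-like element and no CCAAT box. Among genes that were not called, MLX had an E-box at -50, ARRDC2 had elements at -49, -22 and -13 at one of its starts, and TXN had one at -247. Windows were found for 9 of the 10 genes, 12 windows in all, and SLC2A3 had no entry. Across all 35116 windows an E-box was in 7.26%, an E-box-like element in 30.5% and a CCAAT box in 34.6%. These are matches of letters, and binding was not measured.

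**Figure D3:**
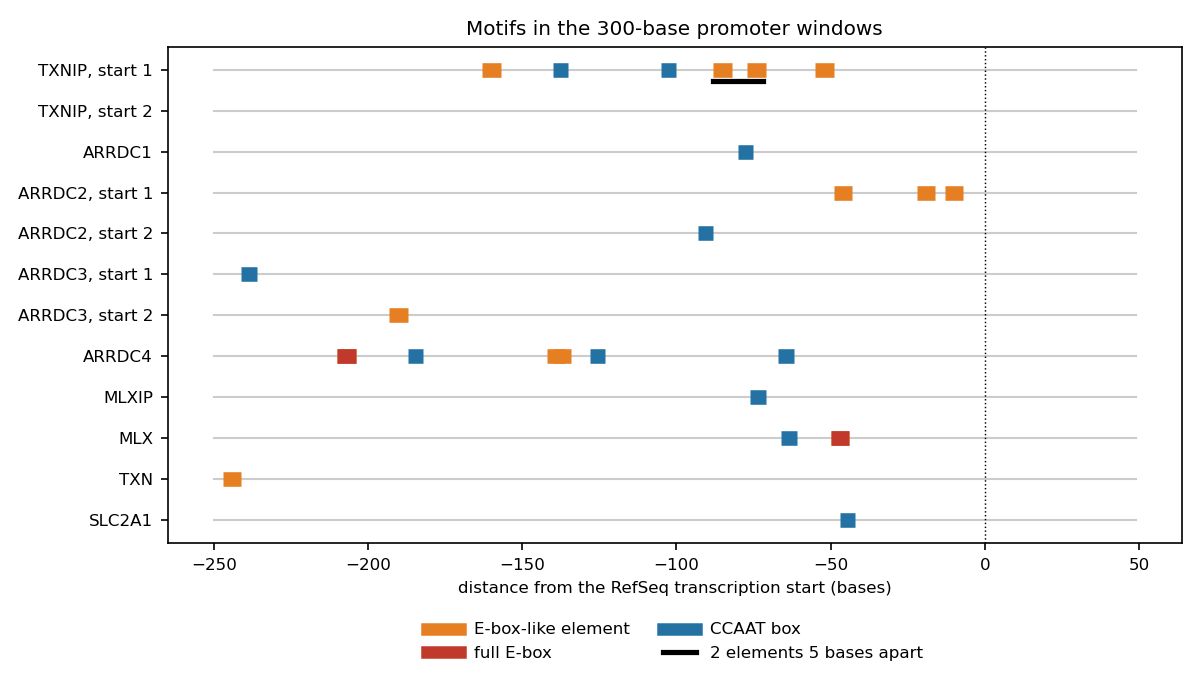
Motif matches in the 12 promoter windows of 9 genes, by distance in bases from the RefSeq transcription start (x axis), with orange for E-box-like elements, red for full E-boxes, blue for CCAAT boxes and a black bar for elements 5 bases apart. TXNIP start 1 was the only one of these 12 windows with the black bar, at -88 to -72.

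The subunits of the glucose-sensing factor itself were not called different. MLXIP (ENSG00000175727, chr12:122078722-122147347, plus strand), which encodes MondoA, had 79.0, 78.0 and 86.7 CPM with B35 and 78.9, 103 and 96.9 CPM in untreated cells. The groups overlapped through untreated replicate 1, and the log2 fold change was -0.20 ± 0.11. Once trends on GC content and gene length were taken out of each library, a setting chosen after the data were seen, MLXIP was called lower at -0.32 ± 0.078. MLX (ENSG00000108788, chr17:42567068-42573239, plus strand), its obligate partner, had 55.7, 60.3 and 56.7 CPM with B35 and 63.1, 62.8 and 57.9 CPM in untreated cells. Here too the groups overlapped, with a log2 fold change of -0.09 ± 0.092 and no call in any setting. Of the merged exons of MLX, 18.08% are shared with PSMC3IP on the opposite strand, and reads there cannot be told apart where counting does not use strand.

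TXN (ENSG00000136810, chr9:110243811-110256640, minus strand), which encodes the thioredoxin that TXNIP inhibits, was the most abundant of the 10 genes per length in every library. It had 432, 388 and 317 CPM with B35 and 476, 469 and 510 CPM in untreated cells. The groups did not overlap, but the B35 libraries spread by 15.4% and the log2 fold change of -0.36 ± 0.11 was not called. TXN was called lower in 6 of 14 alternatives, among them DESeq2 and the fit without B35 replicate 1, where the value was -0.46 ± 0.094. Without B35 replicate 3 the value was -0.24 ± 0.098 and TXN was not called. Per length, 7.2 ± 1.19 times as much TXN as TXNIP was present with B35, against 37.8 ± 1.36 times in untreated cells (ratio of FPKM, SD, n = 3 each). The ratio was 8.18, 7.55 and 5.87 in the B35 libraries and 38.3, 36.3 and 38.9 in the untreated libraries.

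Neither glucose transporter was called. SLC2A1 (ENSG00000117394, chr1:42925375-42959176, minus strand), which encodes the widely expressed transporter GLUT1, had 236, 236 and 255 CPM with B35 and 170, 222 and 191 CPM in untreated cells. All B35 libraries were above all untreated ones, yet untreated replicate 2 came close to them. The log2 fold change was 0.31 ± 0.11, and SLC2A1 was called higher in 5 of 14 alternatives, including those without untreated replicate 2 (0.42 ± 0.12) and without B35 replicate 1 (0.33 ± 0.1). Without untreated replicate 1 the value was 0.22 ± 0.11 and SLC2A1 was not called. SLC2A3 (ENSG00000059804, chr12:7919230-7936275, minus strand), which encodes the high-affinity transporter GLUT3, had 39.6, 39.9 and 38.3 CPM with B35 and 45.0, 43.4 and 42.2 CPM in untreated cells. Although these groups did not overlap, the difference was small, with a log2 fold change of -0.15 ± 0.092, and it was called in no setting. SLC2A1 shares 2.71% of its exons with SLC2A1-AS1 and 2.37% with AC099795.1. SLC2A14, the near-identical copy of SLC2A3 with which reads could be shared, had no count in any of the 6 libraries. The ratio of SLC2A1 to SLC2A3 in FPKM was 7.76, 7.71 and 8.66 with B35 and 4.93, 6.68 and 5.91 in untreated cells, again without overlap.

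Levels of different genes can be compared only per length, and the deposited FPKM was used for that. With B35 the order of mean FPKM was TXN at 327, SLC2A1 at 50.5, TXNIP at 45.5, ARRDC3 at 17.5, ARRDC1 at 15.9, MLX at 13.3, ARRDC2 at 8.02, SLC2A3 at 6.28, MLXIP at 5.75 and ARRDC4 at 2.04. Within that order the ranges over libraries overlapped between ARRDC3 and ARRDC1, between ARRDC1 and MLX, and between SLC2A3 and MLXIP, so these neighbours did not differ beyond their spread. In untreated cells the order was TXN at 423, SLC2A1 at 41.0, ARRDC1 at 17.0, MLX at 14.3, TXNIP at 11.2, ARRDC3 at 9.93, ARRDC2 at 7.41, SLC2A3 at 7.03, MLXIP at 6.66 and ARRDC4 at 1.23. There the overlapping neighbours were ARRDC2 and SLC2A3, and SLC2A3 and MLXIP. TXNIP thus stood above ARRDC1 and MLX with B35 and below both in untreated cells, and it came near SLC2A1, at 44.6 to 46.2 FPKM against 49.2 to 52.7 FPKM for SLC2A1. With TMM-scaled counts per kilobase the order was the same in both groups.

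**Figure D4:**
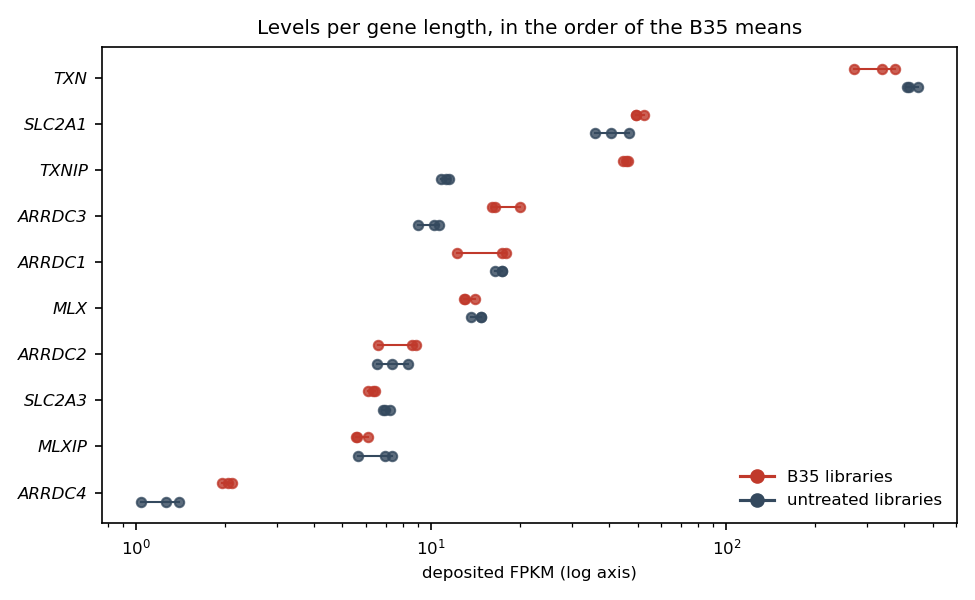
Deposited FPKM of the 10 genes on a log axis (x axis), each library a point, with B35 in red above untreated in dark and a line over the range of 3 libraries. TXNIP shows the widest gap between groups, with 44.6 to 46.2 in B35 libraries and 10.8 to 11.5 in untreated libraries.

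Across the 6 libraries the genes whose log2 CPM was most like that of TXNIP, among 13631 tested genes with a mean CPM of 1 or more, were IGFBP1, CASP14, IGFBP3, IRAK2 and AL391056.1. Their Pearson correlations were 0.9987, 0.9983, 0.9982, 0.9978 and 0.9973 in that order, and 59 genes were above 0.99. The 6 libraries fall into 2 groups of 3, and all 5 genes were higher with B35. IGFBP1, which binds insulin-like growth factors, had 186, 165 and 173 CPM with B35 and 37.9, 42.1 and 40.2 CPM in untreated cells. Its relative IGFBP3 had 630, 505 and 588 CPM with B35 and 86.7, 90.0 and 97.0 CPM in untreated cells. The caspase gene CASP14 had 3.62, 2.16 and 2.85 CPM with B35 and no count in any untreated library. Its correlation with TXNIP therefore rests largely on presence with B35 against absence in untreated cells. Among the 10 genes the correlation with TXNIP was 0.96 for ARRDC3, 0.94 for ARRDC4, 0.82 for SLC2A1 and 0.34 for ARRDC2. It was -0.29 for ARRDC1, -0.58 for MLXIP, -0.66 for MLX, -0.81 for TXN and -0.93 for SLC2A3. These values describe 6 libraries under 2 treatments and carry no test.

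Other genes around TXNIP were read from 8 lists of 111 symbols, of which 110 matched a gene and 88 were tested. Of the 88, 5 were called higher and 10 lower with B35, or 17.0%, beside 15.4% of all tested genes, and their median log2 fold change was -0.02, beside 0.0067 for all genes. Without B35 replicate 1 these counts were 8 and 11, and leaving out other libraries in turn gave as few as 3 in each direction. Of 9 tested targets of MondoA and of its relative ChREBP, other than the genes above, 0 were called (edgeR; also 0 by DESeq2 and by limma-voom), 1 was higher and 1 lower at an unadjusted p under 0.05, and their median log2 fold change was -0.01. Those highest in CPM were the lipid synthesis genes SCD, at 1617, 1627 and 1645 CPM with B35 and 1490, 1720 and 1706 CPM in untreated cells, and FASN, with a log2 fold change of -0.23 ± 0.11 (adjusted p = 0.171). With trends on GC content and gene length removed, FASN was called lower at -0.34 ± 0.077. That setting called 2 genes of this list higher and 2 lower, or 1 and 3 with the replicate number as a block. The block alone, no filter on low counts and leaving out B35 replicate 3 each gave 1 higher. That 0 were called in a list of 9 is not read as a result.

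Among the 11 MYC, MAX and E-box proteins that share partners or sites with MondoA and MLX, 3 were called higher and 0 lower. The lower count was also 0 at an unadjusted p under 0.05 and by DESeq2 and limma-voom. Of all tested genes 8.82% were called higher and 6.59% lower, so 0 lower in a list of 11 is not read as a result. Leaving out a library gave 2 to 4 higher. MXI1, a repressor that pairs with MAX, had 97.5, 75.3 and 69.6 CPM with B35 and 33.3, 26.4 and 33.8 CPM in untreated cells (log2 fold change 1.37 ± 0.15, edgeR adjusted p = 0.000343). MXD1, another MAX-binding repressor, had 20.6, 16.5 and 19.5 CPM with B35 and 11.4, 12.5 and 11.7 CPM in untreated cells (0.67 ± 0.13, adjusted p = 0.00703). Both rose without overlap between groups and were called in all 14 alternatives. MYC itself rose by 0.36 ± 0.081 (adjusted p = 0.0136), but it was not called when any 1 untreated library was left out, with adjusted p of 0.0518 to 0.0957.

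In the list of 24 thioredoxin, peroxiredoxin, glutaredoxin and methionine sulfoxide reductase genes, 7 were called lower, where 6.59% of all tested genes were, and the median log2 fold change was -0.15. None was called higher by edgeR, DESeq2 or limma-voom, with 0 higher at an unadjusted p under 0.05, while 1 was called higher without B35 replicate 1 and 1 with no filter on low counts. PRDX1, a cytosolic peroxiredoxin that thioredoxin reduces, had 436, 540 and 528 CPM with B35 and 794, 745 and 787 CPM in untreated cells (log2 fold change -0.63 ± 0.1, edgeR adjusted p = 0.0029). Of its exons 24.9% are shared with MMACHC on the opposite strand. GLRX2, a mitochondrial glutaredoxin, had 35.6, 35.5 and 37.4 CPM with B35 and 58.9, 53.9 and 51.7 CPM in untreated cells (-0.60 ± 0.096, adjusted p = 0.00302). The peroxiredoxins PRDX6 (-0.40 ± 0.1, adjusted p = 0.0217) and PRDX3 (-0.38 ± 0.095, adjusted p = 0.0222) were also lower. So was TXNRD1, the cytosolic thioredoxin reductase, named after its values were seen (-0.33 ± 0.084, adjusted p = 0.024). TXNRD1 was called in 10 of 14 alternatives, and it was not called without B35 replicate 3 or without any 1 untreated library. PRDX3 and PRDX6 were each not called without untreated replicate 1, untreated replicate 3 or B35 replicate 3, and the list's count fell to 2 in each of those fits, while PRDX1 and GLRX2 were called in all 14 alternatives.

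Most genes for the use of glucose 6-phosphate, the metabolite that MondoA senses, were not called. Of 12 tested, 3 were called lower, 1 was called higher and 8 were not called. Of all tested genes 6.59% were called lower and 8.82% higher, so 1 higher in a list of 12 is not read as a result. The median log2 fold change was -0.13. In the fits that leave out 1 library the lower count ran from 1 to 4, and the higher count stayed at 1. GFPT2, which with GFPT1 commits fructose 6-phosphate to the hexosamine pathway, rose to 64.9, 62.0 and 57.5 CPM with B35, against 36.6, 41.2 and 42.0 CPM in untreated cells (log2 fold change 0.62 ± 0.1, edgeR adjusted p = 0.00308). Its paralog GFPT1 moved the other way (-0.37 ± 0.11, adjusted p = 0.0383), and GPI, the glucose 6-phosphate isomerase, fell by 0.30 ± 0.087 (adjusted p = 0.0403). GFPT2 was called in all 14 alternatives, whereas GFPT1 and GPI were each not called in 5 of the 6 fits that leave out 1 library. The exons of MXI1, MXD1, GLRX2, GPI and ARRB1 overlap those of other genes by 3.71% to 7.75%.

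In the remaining lists a single gene was called. Of all tested genes 8.82% were called higher and 6.59% lower. Counts of 0 or 1 in such short lists are not read as a result. Of 4 other tested arrestin-fold genes, ARRB1, which encodes β-arrestin 1, rose by 0.38 ± 0.11 (edgeR adjusted p = 0.0355), and it was not called in 5 of the 6 fits that leave out a library. Without B35 replicate 1, 2 genes of this list were called higher. None of 9 NEDD4-family ligases passed, with 1 lower at an unadjusted p under 0.05. ITCH, a ligase known to act on TXNIP, had a log2 fold change of 0.02 ± 0.11 (adjusted p = 0.944). Of 15 kinase and transporter trafficking genes, 0 were called and 4 were higher at an unadjusted p under 0.05. The share of all tested genes under that unadjusted threshold was not counted, so nothing is read from such counts. PRKAA1, a catalytic subunit of AMPK, the kinase that marks TXNIP for degradation, stood at 0.16 ± 0.13 (adjusted p = 0.447), and VPS35, which recycles GLUT1 to the surface, at -0.13 ± 0.1 (adjusted p = 0.424). Of 5 tested sugar transporters other than SLC2A1 and SLC2A3, 0 were called and 1 was higher at an unadjusted p under 0.05, and 6 of the 14 listed had no count in any library. DESeq2 and limma-voom called 0 genes in the ligase, trafficking and transporter lists too. With trends on GC content and gene length removed, 1 ligase and 1 transporter were called lower. That setting called 3 trafficking genes higher and 1 lower. The replicate number as a block called 1 trafficking gene higher, and no filter on low counts called 1 lower.

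**Figure D5:**
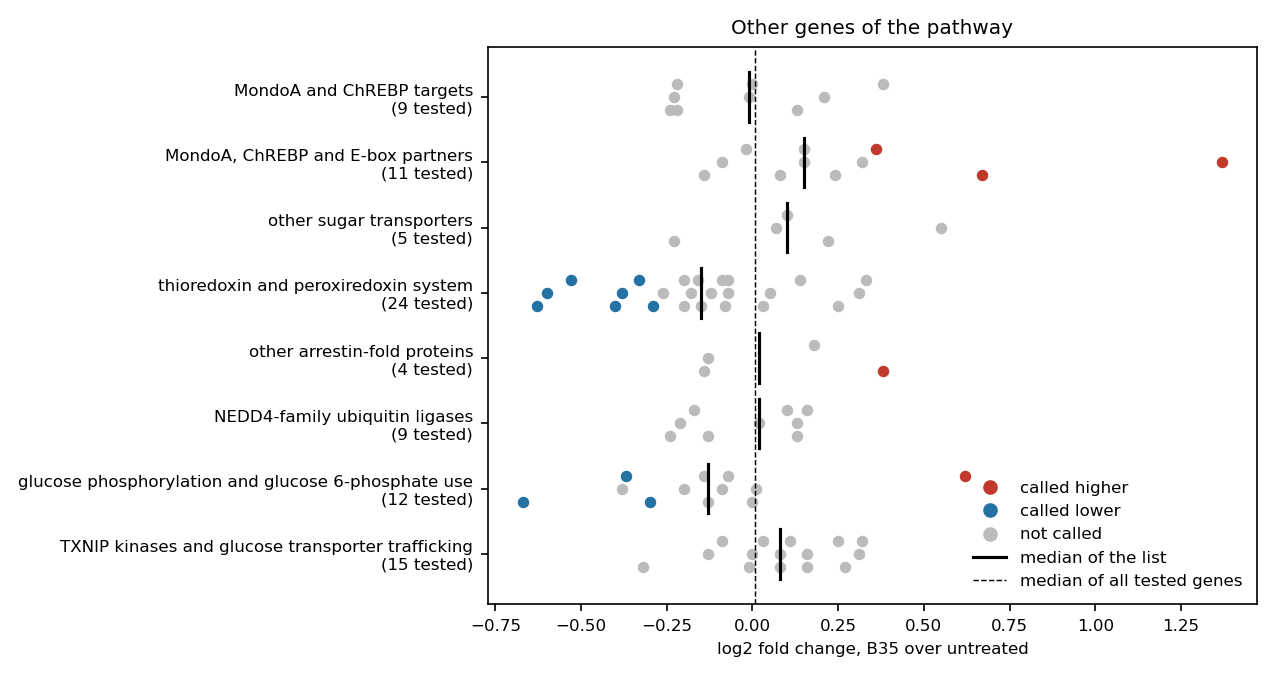
log2 fold change of B35 over untreated (x axis) for each tested gene of the 8 lists, in red where called higher, blue where called lower and grey where not called, with the median of each list as a black bar and the median of all tested genes as a dashed line. The 7 blue points of the thioredoxin and peroxiredoxin list lay between -0.63 and -0.29, and MXI1 was the farthest right at 1.37.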

How the data were processed

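RNA was extracted with TRIzol and libraries were made with a NEBNext Ultra kit, per the labels' protocols. The submitters' processing notes name HISAT2 2.0.5, featureCounts 1.5.0-p3 and the build hg38. The strand setting of the counting is not given in these sources, so overlapping exons can share reads. The authors deposited a whole-number count and an FPKM value per gene for each of 6 libraries. The deposited FPKM equal counts per kilobase of merged exon divided by 0.9824 to 1.0462 times the library total, and they served for levels between genes.

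Counts were fitted in R 4.3.3 with edgeR 4.0.16 (quasi-likelihood, two-sided, filterByExpr with minimum count 10 and minimum total 15, TMM), adjusted by Benjamini-Hochberg over 14773 genes and called under 0.05, with no covariate. CPM are TMM-scaled. Libraries of a group differed beyond counting noise, with a chi-square of 4.46 to 32.3 per degree of freedom, and each was 1 replicate. Alternatives were RLE scaling, no filter, a mean CPM of 1 or more, DESeq2 1.42.0, limma-voom (limma 3.58.1), the replicate number as a block, removal of GC and length trends without and with that block (transcript GC stood in for exon GC), and each library left out. Figures used matplotlib 3.10.9. The genes and lists were chosen with earlier results of these data known. Named were all 10 genes, KDM1A, copies and exon overlaps, up to 4 called genes of each list by adjusted p or else the 2 highest in CPM, and the 5 genes most like TXNIP. The list symbol DSCR3 matched no gene. A gene that the naming rule took is not reported here.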

Additional observations from a re-analysis of the deposited data

How the results depend on the processing

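Of 140 fold changes of the 10 genes under 14 alternatives, 126 kept the call, 13 gained one and 1 lost it, and no called value changed sign. ARRDC4 lost its call without untreated replicate 3, and the gains were in TXN, SLC2A1 and MLXIP. Genes called lower among the 10 numbered 1 with no filter on low counts, with DESeq2 and with the replicate block, 2 with GC and length trends removed, without or with the block, and 0 to 1 with a library left out. Among all genes, 1303 were called higher and 973 lower, and leaving out a library gave 587 to 1822 called higher and 294 to 1520 called lower, in fits with fewer samples. Removal of GC and length trends gave 1946 higher and 1965 lower, or 1904 higher and 1952 lower with the replicate block. Among pathway genes, the same removal gave 10 higher and 17 lower, or 9 higher and 18 lower with the block, and leaving out a library gave 3 to 8 higher and 3 to 11 lower. What moved the counts under GC and length removal was not tested.

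Whether the replicate number pairs the samples is not known. Deviations of same-numbered libraries correlated at 0.142, 0.006 and -0.051, and those of differently numbered libraries at -0.197 to 0.228. With 3 libraries a group these values cannot decide it. The replicate block gave 4 higher and 1 lower among the 10 genes, 7 higher and 10 lower among pathway genes. With it GPI was no longer called (adjusted p = 0.0617). Library totals of 17141478 to 18530670 counts put ARRDC4 at 71 to 157 counts a library, where counting error limits a fold change the most among the 10 genes.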
